A study of Mus musculus with 6 samples.

Results

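The immunoglobulin genes of the mouse liver were described across 6 RNA-seq libraries. They comprised the heavy, kappa and lambda chain constant genes, the variable (V) and joining (J) segments of the 3 loci, and Jchain. The rule for membership did not use the difference between diets, but it was set with earlier results of these data known. Members were chosen by gene name and by their raw counts, 10 or more summed over the 6 libraries. This gave 189 of the 373 such names listed, among 55802 distinct gene symbols. They were 8 heavy constant genes, Igkc, 3 lambda constant genes, Jchain, 84 heavy V segments of 183 listed, 88 kappa V segments of 160 listed, 3 lambda V segments and 1 kappa joining segment. Just inside the limit lay Igkv8-18 with 10 counts in all and Ighv2-4, Ighv2-6-8 and Igkv3-11 with 11. Just outside it lay Igkv4-78 with 9 and Ighv5-15, Igkv1-132, Igkj5 and Ighv9-2 with 8.

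The livers came from C57BL/6 male mice labelled 71 weeks, the time over which they were reared. The labels do not state how much of that time was spent on the PS-MP chow. The 3 control libraries were from mice on normal chow, and the 3 PS-MP libraries from mice whose chow contained polystyrene microplastic. No genetic change is named for either diet. The labels number the libraries of a diet without stating that each came from a separate animal, and p-values here reflect only how these libraries vary, which may be technical.

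An antibody is built from heavy and light chains, and each chain joins a variable part, which binds the antigen, to a constant part, which sets the class. In each developing B cell a V segment is joined to a J segment (with a D segment between them in the heavy chain), so the V segments in a tissue's RNA follow which B cell clones and antibody-secreting plasma cells it holds. Class switching later replaces the heavy constant gene: Ighm and Ighd encode IgM and IgD of naive B cells, the Ighg genes IgG, Igha the IgA typical of mucosal surfaces, and Ighe IgE. In bulk liver, fewer B lineage cells and less immunoglobulin RNA per cell cannot be told apart.

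The sequences below are the genes on which the values turn, from GENCODE M21 (GRCm38), on chromosome 6 for kappa, 12 for heavy and 16 for lambda. Igkc, the only kappa constant gene, is shown because its counts departed from those of the kappa V segments. The first 300 bases of its coding sequence are given.
Igkc: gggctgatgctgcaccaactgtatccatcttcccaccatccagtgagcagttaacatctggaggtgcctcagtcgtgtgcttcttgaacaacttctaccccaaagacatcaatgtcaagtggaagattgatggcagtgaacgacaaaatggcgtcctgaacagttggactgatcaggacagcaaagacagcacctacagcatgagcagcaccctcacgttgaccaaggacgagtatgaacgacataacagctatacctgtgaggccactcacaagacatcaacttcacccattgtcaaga

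Igkv5-39 was the largest V segment of control library 2 and PS-MP library 1, and its V exon is given in 298 bases.
Igkv5-39: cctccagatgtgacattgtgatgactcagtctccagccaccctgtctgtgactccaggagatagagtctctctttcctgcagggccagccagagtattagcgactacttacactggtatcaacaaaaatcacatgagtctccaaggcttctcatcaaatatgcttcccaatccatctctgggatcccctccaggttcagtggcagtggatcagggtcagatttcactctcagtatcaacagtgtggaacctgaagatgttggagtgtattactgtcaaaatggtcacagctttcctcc

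Ighv1-53 and Ighv1-72 were the heavy segments with the most counts. Over the 300 bases given they differ at 12, shown in capitals in Ighv1-72.
Ighv1-53: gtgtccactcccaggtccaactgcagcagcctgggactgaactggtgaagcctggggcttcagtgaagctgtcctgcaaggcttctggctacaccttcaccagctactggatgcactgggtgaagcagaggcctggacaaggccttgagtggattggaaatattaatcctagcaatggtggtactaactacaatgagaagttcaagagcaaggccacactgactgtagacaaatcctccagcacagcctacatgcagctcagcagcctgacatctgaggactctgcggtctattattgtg
Ighv1-72: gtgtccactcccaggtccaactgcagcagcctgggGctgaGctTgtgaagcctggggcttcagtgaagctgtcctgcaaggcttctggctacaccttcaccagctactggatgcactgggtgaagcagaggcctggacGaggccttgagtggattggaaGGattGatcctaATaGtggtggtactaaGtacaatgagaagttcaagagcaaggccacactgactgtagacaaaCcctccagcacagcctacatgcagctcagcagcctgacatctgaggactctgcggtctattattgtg

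Iglv1 was the largest V segment of PS-MP library 2, and Iglv2 is its close copy. They differ at 9 of the 300 bases given, shown in capitals in Iglv2.
Iglv1: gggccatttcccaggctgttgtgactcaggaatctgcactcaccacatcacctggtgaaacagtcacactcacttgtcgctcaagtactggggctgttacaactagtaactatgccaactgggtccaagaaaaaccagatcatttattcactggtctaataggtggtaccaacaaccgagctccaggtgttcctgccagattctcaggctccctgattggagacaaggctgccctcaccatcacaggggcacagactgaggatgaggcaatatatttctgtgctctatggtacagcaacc
Iglv2: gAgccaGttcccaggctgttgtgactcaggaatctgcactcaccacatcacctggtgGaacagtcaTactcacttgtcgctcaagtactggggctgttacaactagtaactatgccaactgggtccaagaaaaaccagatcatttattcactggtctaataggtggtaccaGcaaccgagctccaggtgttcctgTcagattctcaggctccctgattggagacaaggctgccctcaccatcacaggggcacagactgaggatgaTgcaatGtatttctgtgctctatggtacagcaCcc

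Such likeness was common. The coding V exon of a heavy V member was a median of 96.1% identical to its nearest listed segment with an annotated coding sequence. Of 83 compared, 53 were at 95% or more. For kappa V members the median was 95.05%, with 43 of 85 at 95% or more. How reads shared by similar segments were assigned is not given in the sources used here, so the counts of single segments are uncertain.

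The libraries held 68357478 to 112566641 counts, and 0.00636% to 0.0314% of them fell on the members. The ribosomal RNA gene Rn18s-rs5 took 2.92%, 11.2% and 1.15% of counts in control libraries 1 to 3, against 1.14%, 0.599% and 0.387% in PS-MP libraries 1 to 3. Its part in the results was not tested. Levels are given in CPM, the counts of a gene relative to the library total, scaled between libraries with TMM factors.

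Heavy and kappa V segments had lower mean levels in the PS-MP livers, with ratios of PS-MP to control of 0.336 and 0.443, while the lambda V segments had a ratio of 1.75. The ratios were 0.910 for the heavy constant genes, 1.93 for Igkc and 0.578 for the lambda constant genes. All of these classes overlapped between diets. Leaving out a library moved 3 of them by over 1.5 times: lambda V to 0.438 without PS-MP library 2, Igkc to 638 without control library 2, and the lambda constant genes to 0.335 without PS-MP library 2 and 0.985 without control library 2. All V segments together reached 105, 152 and 39.2 CPM in control libraries 1 to 3, and 46.4, 46.0 and 38.5 CPM in PS-MP libraries 1 to 3. Control libraries 1 and 2 were high, and control library 3 lay within the PS-MP range, so the diets overlapped. The means were 98.7 ± 56.6 CPM (SD, n = 3) and 43.7 ± 4.46 CPM (SD, n = 3), a ratio of 0.442, which ranged from 0.340 to 0.604 when each library was left out in turn. Over all 189 members the ratio was 0.902, because Igkc and Jchain carried a large part of the sum. It was 0.620 without Igkc and 0.530 without Igkc and Jchain. The ratio over all members turned to 1.54 without control library 2.

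**Figure D1:**
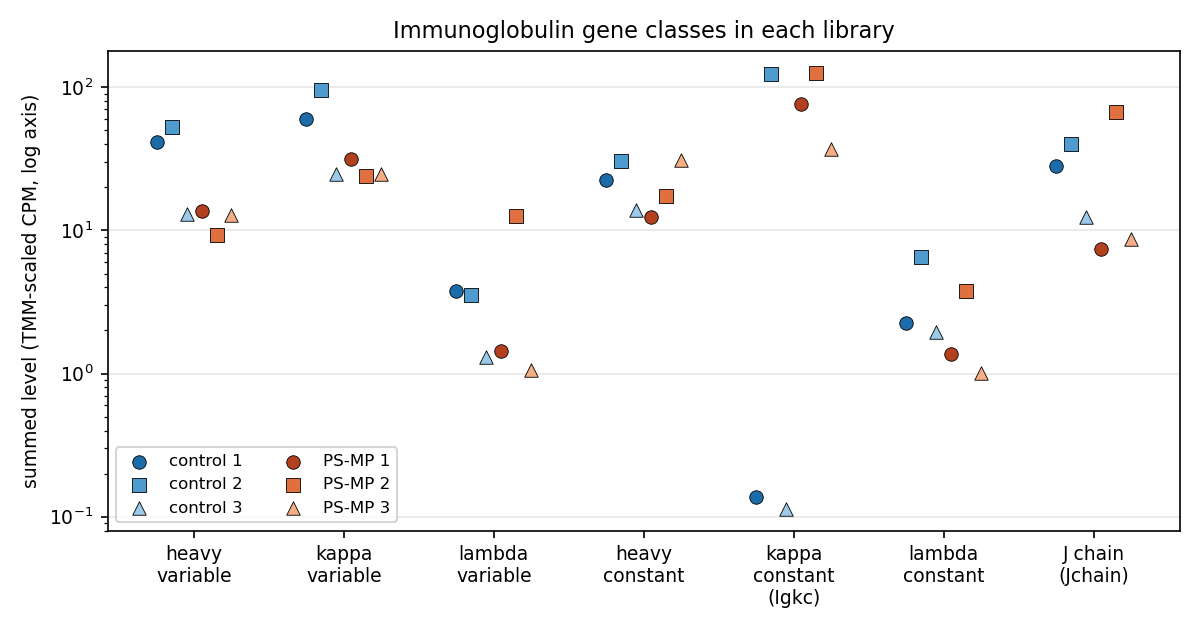
Summed level of each immunoglobulin gene class in each library, in TMM-scaled CPM on a log axis, with blue points for control and orange points for PS-MP. Igkc lies near 0.1 CPM in control libraries 1 and 3 and between 37.0 and 127 CPM in the other libraries, while control libraries 1 and 2 lie highest for heavy and kappa V segments.

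No member passed edgeR's quasi-likelihood test at an adjusted p under 0.05. Of the 189 members, 101 had enough counts to be tested. Of all 17662 genes tested, 0.0113% were called higher in PS-MP and 0% lower. At an unadjusted p under 0.05, 2 members were higher and 27 lower, where 2.8% and 2.58% of all genes were. DESeq2 called 4 members, all lower, where it called 62 higher and 116 lower of all 21354 genes given an adjusted p. The limma-voom fit called 0 members and 1 of all 17662 genes. CPM values of the diets did not overlap for 1 tested member higher in PS-MP, where 6.24% of all genes were, and for 13 lower, where 4.99% were. The log2 fold change (PS-MP minus control) was below 0 for 87 of the 101, with a median of -1.04, while over all genes 47.2% were below 0 and the median was 0.02. Without edgeR's filter on low counts, 153 of the 189 members were below 0, with a median of -1.03, where 45.8% of all genes were. The members had still been chosen by summed counts, a limit that a segment could reach through the controls alone. Of the heavy V members, 5 had counts only in controls and 1 only in PS-MP libraries. Of the kappa V members, 4 had counts only in controls and 4 only in PS-MP libraries. Many members share reads or cells, so they are not separate measurements. Without control library 2, 17 of 115 tested members were lower at an unadjusted p under 0.05, where 697 of all 18315 genes were. Without control library 3, 47 of 127 members were, where 380 of 18467 genes were. By limma-voom, 11 of 101 members were, where 461 of 17662 genes were.

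**Figure D2:**
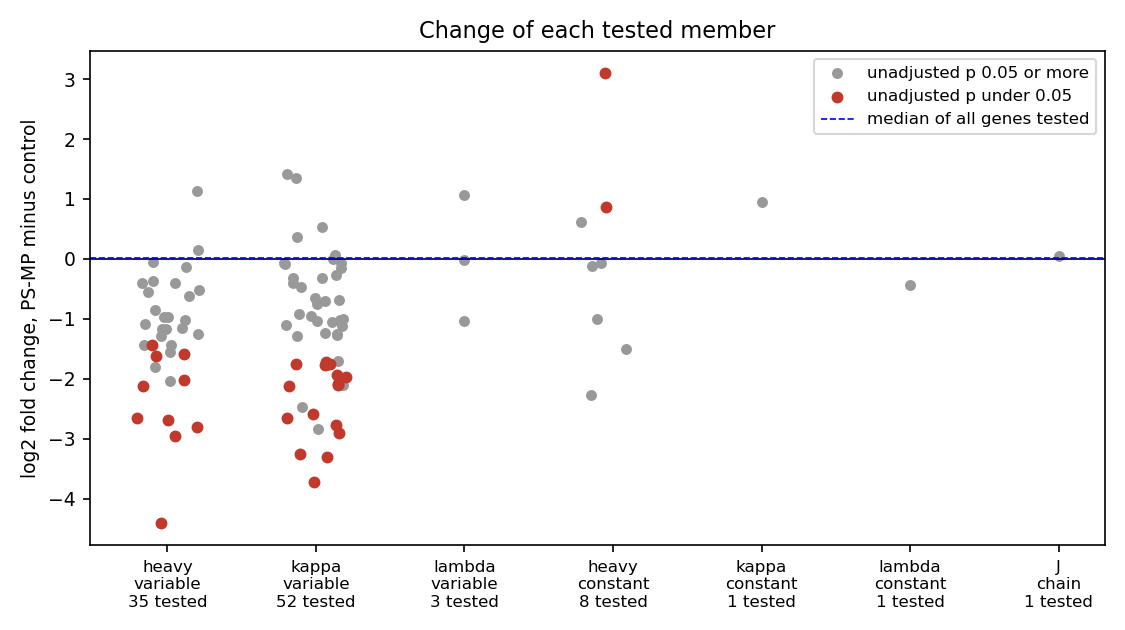
Log2 fold change of each tested member by class, with red points for an unadjusted edgeR p under 0.05 and a dashed line at the median of all genes tested. Of the tested segments, 33 of 35 heavy and 46 of 52 kappa V segments lie below 0, and the 8 heavy constant genes lie on both sides.

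Among the heavy constant genes, IgG genes made up less and IgM more of the counts in each PS-MP library than in each control library. Ighg1, Ighg2b, Ighg2c and Ighg3 together took 77.4%, 76.5% and 70.8% of heavy constant counts in control libraries 1 to 3, and 66.9%, 25.4% and 25.5% in PS-MP libraries 1 to 3. The diets did not overlap, with PS-MP library 1 close to control library 3 and the other PS-MP libraries far lower. These shares rest on 1017 to 2679 counts a library. The exact binomial 95% intervals, which cover counting error only, were 63.9% to 69.8% in PS-MP library 1 and 68.4% to 73.1% in control library 3.

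Igha took 7.27%, 2.35% and 4.41% of heavy constant counts in the controls, and 4.42%, 36.3% and 59.0% in the PS-MP libraries. PS-MP libraries 2 and 3 were high, and PS-MP library 1 lay inside the control range. Igha counts were 118, 44 and 65 in the controls against 45, 558 and 1581. The log2 fold change was 3.10 (SE 1.13), with an edgeR adjusted p of 0.8998. The difference in mean share, 28.6 points, was 15.7 without PS-MP library 3.

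Ighm, the IgM heavy chain, had 0.881, 1.12 and 0.889 CPM in the controls and 1.65, 1.29 and 2.31 CPM in the PS-MP libraries. It was the only tested member whose PS-MP values all lay above the controls. Its log2 fold change was 0.86 (SE 0.29), with an edgeR adjusted p of 0.849. Ighm took 3.94%, 3.63% and 6.37% of heavy constant counts in the controls and 13.4%, 7.41% and 7.39% in the PS-MP libraries.

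By raw counts, the highest library differed between the IgG subclasses. Ighg3 had 823 counts in control library 1 and 86 to 202 in the others. Ighg2b had 228, 1212 and 498 counts in the controls and 365, 54 and 60 in the PS-MP libraries. Its log2 fold change was -2.27 (SE 1.03), with an edgeR adjusted p of 0.923. Ighg1 ranged from 15 counts in PS-MP library 2 to 415 in control library 3, and Ighg2c from 33 in PS-MP library 1 to 182 in PS-MP library 3. In CPM, Ighg1 and Ighg2c were both highest in PS-MP library 3, with Ighg1 at 3.95 CPM there and 3.92 CPM in control library 3. Both overlapped between diets. Ighd had 173, 329 and 251 counts in the controls and 156, 474 and 203 in the PS-MP libraries, and Ighe at most 21 in any library. Per kilobase of exon, Ighg3 led in control library 1, Ighg2b in control libraries 2 and 3 and PS-MP library 1, Ighd in PS-MP library 2 and Igha in PS-MP library 3.

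**Figure D3:**
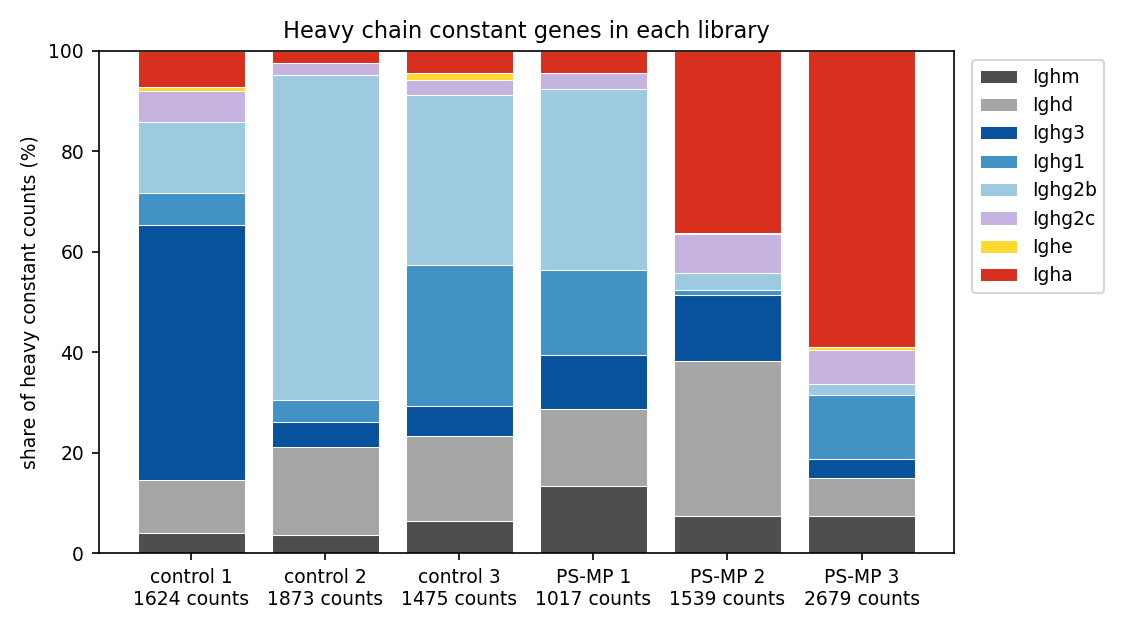
Share of each heavy constant gene in the heavy constant counts of each library, in percent, with the number of counts under each bar. Blue and violet IgG genes fill most of the control bars, and Igha (red) fills 36.3% and 59.0% of PS-MP libraries 2 and 3.

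Igkc, which every kappa chain carries, was nearly absent from 2 control libraries that held many kappa V counts. It had 10, 7546 and 12 counts in control libraries 1 to 3, and 6292, 11192 and 3172 in PS-MP libraries 1 to 3. The kappa V segments had 4365, 5832 and 2632 counts in the controls and 2580, 2132 and 2106 in the PS-MP libraries. Control libraries 1 and 3 thus held 0.0023 and 0.0046 Igkc counts per kappa V count, against 1.29 to 5.25 in the other 4 libraries. Of all genes in the files, Igkc was the only one above 20 CPM in those 4 libraries and below 2 CPM in control libraries 1 and 3, a pattern looked for after the values of Igkc were seen. The log2 fold change of Igkc was 0.95 (SE 2.06), with an edgeR adjusted p of 0.9998. Without control library 2 the ratio of mean CPM rose from 1.93 to 638. Gm30211, a noncoding gene that overlaps Igkc on the same strand in GENCODE, had 14, 28 and 8 counts in the controls and 0, 7 and 8 in the PS-MP libraries. How reads in that overlap were counted is not given in the sources used here, and its part was not tested.

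The lambda share of light chain counts depends on which part of the chain is counted. By constant genes it was 94.2%, 4.998% and 94.5% in the controls and 1.76%, 2.91% and 2.67% in the PS-MP libraries, moving with Igkc. By V segments it was 5.89%, 3.54% and 4.98% in the controls and 4.41%, 34.2% and 4.14% in the PS-MP libraries. Only PS-MP library 2 stood apart on that measure. Among the lambda constant genes, Iglc2 had 149, 256 and 145 counts in the controls and 97, 323 and 68 in the PS-MP libraries. Iglc1 reached 103 counts in control library 2 and at most 12 elsewhere, and Iglc3 ranged from 6 to 55. Iglc1 and Iglc3 had too few counts to be tested.

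Jchain, on chromosome 5, encodes the small chain that links IgM and IgA into polymers and is made by plasma cells. It had 2042, 2432 and 1322 counts in the controls and 609, 5955 and 745 in the PS-MP libraries. PS-MP library 2 was highest of the 6, and the other PS-MP libraries were below every control. The log2 fold change was 0.05 (SE 0.90), with an edgeR adjusted p of 0.9998. Without PS-MP library 2 it was -1.73.

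Heavy V segments were led by the Ighv1 family, the largest of the mouse heavy locus. The locus gave 41.5, 52.4 and 13.0 CPM in the controls and 13.7, 9.34 and 12.9 CPM in the PS-MP libraries. Ighv1-53, shown above, had 709, 650 and 184 counts in the controls and 116, 75 and 101 in the PS-MP libraries. Every PS-MP library was below every control for this segment. Its log2 fold change was -2.69 (SE 0.67), with an adjusted p of 0.767 by edgeR and 0.00238 by DESeq2. Ighv1-72 had 126, 619 and 66 counts in the controls against 60, 59 and 34, so its high value lay in control library 2. In CPM it overlapped between diets, at 0.624 in control library 3 and 0.728 in PS-MP library 1. Ighv1-26 had 222, 273 and 85 counts against 125, 37 and 97, and Ighv3-6 had 59, 132 and 17 against 58, 67 and 22; both overlapped. Ighv14-4 had 34, 59 and 7 counts against 16, 239 and 28. A log2 fold change of 1.13 turned to -0.91 without PS-MP library 2. Ighv1-9 had 32, 47 and 26 counts against 11, 7 and 10, a log2 fold change of -2.12 (SE 0.54) with an edgeR adjusted p of 0.767.

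The Ighv1 family, with 46 member segments, took 70.5%, 73.4% and 63.8% of heavy V counts in the controls and 62.9%, 42.4% and 56.99% in the PS-MP libraries. Those shares did not overlap, with less than 1 point between control library 3 and PS-MP library 1. The shares of every other heavy family overlapped between diets. Ighv14 took 31.8% in PS-MP library 2 and at most 8.18% elsewhere, and Ighv11 took 12.8% in PS-MP library 3 and at most 4.33% elsewhere.

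Kappa V segments gave 60.1, 95.8 and 24.9 CPM in the controls and 31.3, 24.1 and 24.6 CPM in the PS-MP libraries. Igkv8-21 had the smallest p of any member. It had 35, 40 and 43 counts in the controls and 4, 3 and 6 in the PS-MP libraries, which did not overlap. Its log2 fold change was -3.30 (SE 0.45), with an adjusted p of 0.473 by edgeR and 0.000517 by DESeq2. Igkv9-120 had 51, 47 and 133 counts against 20, 17 and 32, and Igkv8-28 had 31, 19 and 29 against 9, 11 and 6. Neither overlapped between diets, and both had an edgeR adjusted p of 0.767. The other members that DESeq2 called were Ighv1-78 and Igkv4-55. Ighv1-78 had 181, 31 and 9 counts against 8, 2 and 8, too few for the edgeR test. Igkv4-55 had 120, 270 and 21 counts against 12, 29 and 15. In CPM both overlapped between diets, with Ighv1-78 at 0.0851 in control library 3 and 0.0971 in PS-MP library 1.

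The most abundant kappa segments differed from library to library. Igkv5-39 had 144, 1297 and 61 counts in the controls and 737, 69 and 180 in the PS-MP libraries. A log2 fold change of -1.009 turned to 1.63 without control library 2. Igkv3-4 had 488, 187 and 325 counts against 256, 82 and 168, and Igkv10-96 had 548, 176 and 99 against 97, 25 and 36. In CPM both overlapped between diets, with Igkv10-96 at 0.936 in control library 3 and 1.18 in PS-MP library 1. Igkv3-2 had 10, 790 and 87 counts against 64, 12 and 89, so it was high in control library 2 alone. Igkv6-20 had 51, 98 and 71 counts against 42, 613 and 43, and Igkv6-29 had 14, 26 and 32 against 16, 171 and 19. Both were high in PS-MP library 2 alone, and their log2 fold changes of 1.42 and 1.36 turned to -0.97 and -0.55 without it. The Igkv3 family took 27.9%, 28.3% and 23.9% of kappa V counts in the controls and 20.04%, 12.3% and 16.9% in the PS-MP libraries. Those shares did not overlap, while the shares of every other kappa family did.

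Lambda V segments are few in the mouse, and Iglv1 held most of their counts. It had 214, 156 and 114 counts in the controls and 75, 1064 and 68 in the PS-MP libraries. Its log2 fold change of 1.07 turned to -1.36 without PS-MP library 2, where it made up 26.2% of all V counts. Its near copy Iglv2 had 11 counts in that library and 13 to 51 in the others. Iglv3 had 3 to 32 counts a library.

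**Figure D4:**
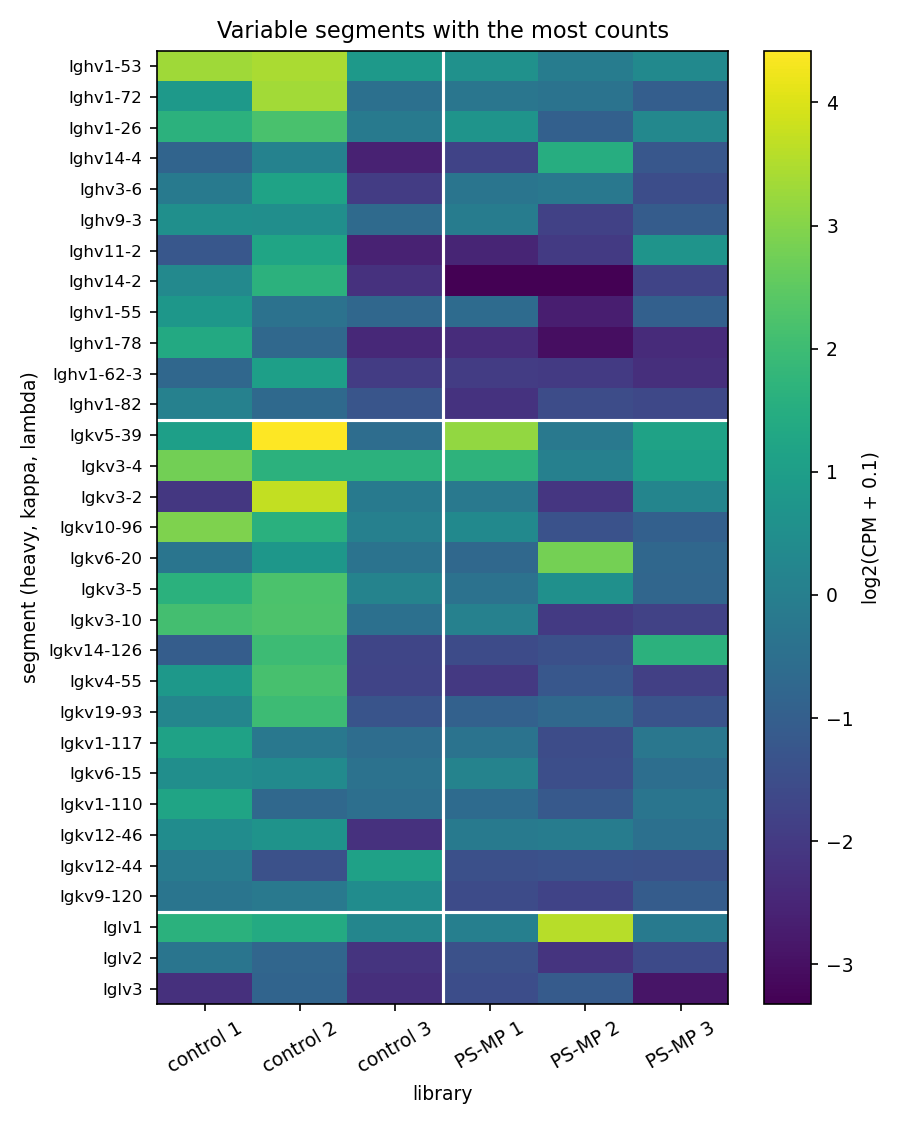
Level of the 12 heavy, 16 kappa and 3 lambda V segments with the most counts in each library, as log2(CPM + 0.1), with white lines between diets and loci. Bright cells stand in single libraries, such as Igkv5-39 in control library 2 and Iglv1 in PS-MP library 2.

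The largest segment of a library was Ighv1-53 in control library 1 with 9.27% of its V counts, Igkv5-39 in control library 2 with 14.0%, and Igkv3-4 in control library 3 with 7.85%. In PS-MP libraries 1 to 3 it was Igkv5-39 with 19.3%, Iglv1 with 26.2% and Igkv14-126 with 7.85%. Igkv14-126 had 28, 234 and 22 counts in the controls and 20, 24 and 259 in the PS-MP libraries. Ighv11-2, chosen after its values were seen, had 24, 138 and 7 against 6, 13 and 128. These segments are known as the light and heavy chain of B-1 cell antibodies against phosphatidylcholine, and both were highest in control library 2 and PS-MP library 3. Bulk counts do not show which chains share a cell.

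Segment diversity was compared by the number of segments with a count and by the effective number, the exponential of the Shannon index. Heavy V segments with a count numbered 73, 69 and 69 in the controls and 65, 48 and 66 in the PS-MP libraries. The PS-MP libraries also held fewer heavy V counts, and after thinning each library to 825 counts the expected numbers overlapped, at 68.5, 60.4 and 68.3 against 64.5, 48.0 and 65.1. The effective number was 30.7, 20.8 and 42.5 in the controls and 38.4, 19.2 and 37.6 in the PS-MP libraries. Control library 2 and PS-MP library 2 were the lowest. For kappa, segments with a count numbered 73, 75 and 73 against 74, 72 and 74. The kappa effective number was 36.4, 25.7 and 42.2 against 26.1, 26.2 and 39.6, so neither locus separated the diets.

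**Figure D5:**
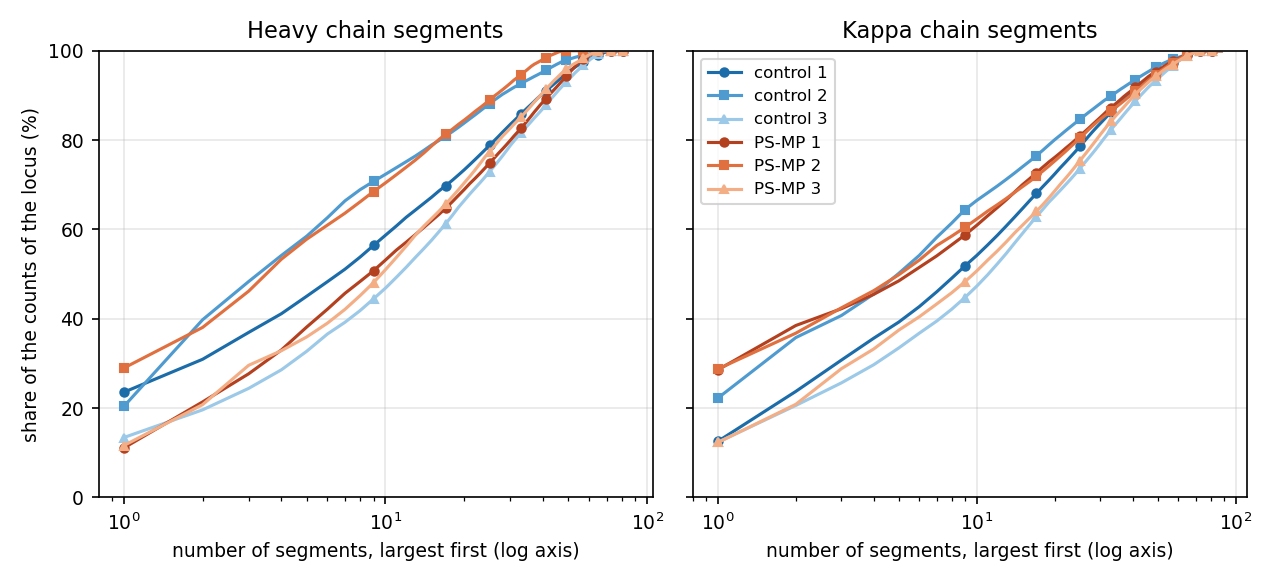
Share of the heavy (left) and kappa (right) V counts held by the largest segments, counted from the largest on a log axis, with a line for each library. Control library 2 and PS-MP library 2 lie highest for heavy segments past the largest segment, and the lines of the diets interleave.

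Most counts lay on segments common to all libraries. Of the heavy V members, 33 of 84 had a count in all 6 libraries and held 75.6% of the counts. Of the kappa V members, 55 of 88 did and held 93.5%. Another 4 heavy and 4 kappa members had counts in 1 library only. Segment profiles overlapped by a median of 57.6% between libraries of the same diet (6 pairs) and 55.8% between diets (9 pairs) for heavy segments. For kappa segments the medians were 50.3% and 57.6%. These pairs share libraries and carry no test.

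The summed level of the B cell genes overlapped between diets. Of 18 B cell genes tested, 7 were above 0 and 11 below, with a median log2 fold change of -0.07 and 0 called by edgeR or at an unadjusted p under 0.05. Their summed level was 25.4, 39.5 and 15.6 CPM in the controls and 15.5, 39.1 and 22.3 CPM in the PS-MP libraries. V counts per count of these genes were 4.14, 3.84 and 2.51 against 2.99, 1.18 and 1.73, which overlapped. Cd79a, which carries the signal of the B cell receptor, had 301, 269 and 254 counts against 118, 424 and 284, and its partner Cd79b had 247, 246 and 170 against 157, 475 and 226. Ms4a1, which encodes CD20, had 76, 236 and 74 counts against 47, 327 and 130. PS-MP library 2 had the most counts of these 3 genes, and in CPM the most of all but Ms4a1, at 3.70 CPM against 3.88 in control library 2.

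Of the 20 plasma cell genes, Mzb1, Tnfrsf17, Prdm1 and Pou2af1 were also highest in CPM in PS-MP library 2. So were Derl3, Fcrl5, Slamf7 and Glcci1. The rest were not, and Sdc1 and Tram2 were lowest there. Derl3, Fcrl5, Slamf7, Glcci1 and Tram2 were named after their values were seen. Mzb1, an endoplasmic reticulum protein of antibody-secreting cells, had 176, 215 and 62 counts in the controls and 38, 940 and 79 in the PS-MP libraries. Tnfrsf17, the receptor BCMA, had 43 counts in PS-MP library 2 and at most 9 in any other. The B cell coactivator Pou2af1 had 148, 171 and 52 counts against 44, 272 and 87. Of 19 plasma cell genes tested, 8 were above 0 and 11 below, with a median of -0.19 and 0 called. Prdm1, a regulator of plasma cell fate that other cells also express, had 20, 13 and 22 counts against 41, 69 and 32, a log2 fold change of 1.24 (SE 0.39) with an edgeR adjusted p of 0.815. Sdc1 and Xbp1, which hepatocytes also express, had log2 fold changes of 0.11 and 0.04.

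Of 9 switching and recombination genes tested, 5 were above 0 and 4 below, and 0 were called. Of 11 antibody receptors and transporters tested, 7 were above 0 and 0 were called. Pigr, which carries polymeric IgA into bile, had a log2 fold change of 0.03 (SE 0.15). Of 7 growth factors for B lineage cells, 6 were above 0, with a median of 0.32, and 0 were called.

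Markers of other cells were read in the same libraries, and edgeR called 0 genes in each list. The summed levels of 3 marker lists were higher in every PS-MP library than in every control. Neutrophil markers summed to 1.28 to 1.75 CPM in the controls and 2.55 to 7.19 CPM in the PS-MP libraries, with 4 of 4 tested above 0. Kupffer cell and macrophage markers summed to 130 to 173 CPM and 197 to 225 CPM, with 10 of 10 above 0. Red cell markers summed to 263 to 504 CPM and 571 to 848 CPM, with 5 of 6 above 0. The summed B lineage growth factors above separated likewise, at 344 to 402 CPM and 442 to 477 CPM. Most of that sum was Cxcl12, at 332 to 385 CPM and 424 to 461 CPM. Of the other tested growth factors, Tgfb1 was also higher in every PS-MP library, and the rest overlapped. Cxcl12 and Tgfb1 were named after their values were seen.

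The other lists overlapped between diets. The 12 T cell markers summed to 9.56, 13.7 and 8.45 CPM in the controls and 8.01, 19.5 and 13.1 CPM in the PS-MP libraries, highest in PS-MP library 2. Natural killer cell markers were highest there too, at 1.89 CPM against 0.681 to 1.08 CPM in the others. Hepatocyte markers summed to 68728 to 85469 CPM in the controls and 74365 to 98894 CPM in the PS-MP libraries, and pancreas and gut markers to 68.5 to 118 CPM and 45.2 to 104 CPM. Spleen and lymph node stroma markers, which include Cr2 and Fcer2a of the B cell list, ranged from 1.13 CPM in control library 3 to 3.96 CPM in control library 2. In control libraries 1 to 3, Cr2 gave 0.468, 0.739 and 0.161 CPM of that sum. Fcer2a gave 0.757, 1.38 and 0.501 CPM. In PS-MP libraries 1 to 3 the stroma markers summed to 1.91, 3.06 and 2.53 CPM. There Cr2 gave 0.0607, 0.430 and 0.187 CPM, and Fcer2a gave 0.486, 1.02 and 0.958 CPM. Whether the V totals followed the stroma markers apart from these B cell genes was not tested. The part of these cells in the immunoglobulin values was not tested.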

How the data were processed

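Raw read counts per gene were deposited by the authors for each of the 6 libraries. Per the labels' protocols, total RNA was poly(A) selected and made into directional libraries. Per the submitters' processing notes, the build was GRCm39 and bcl2fastq was used; for aligner, counter, annotation and strand setting, nothing is given in the sources used here. The whole-series table was not used.

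Rows with the same symbol were summed (67 symbols, none an immunoglobulin gene). Counts were tested with edgeR 4.0.16 (filterByExpr, TMM, quasi-likelihood, Benjamini-Hochberg over 17662 genes), without a block. Alternatives were other scalings and filters, DESeq2 1.42.0, limma-voom (limma 3.58.1), leaving out libraries in turn, and a block for the replicate number. Totals, shares and diversity carry no p. The test was checked on simulated data: of genes changed 4-fold, 47 of 94 tested were called, of those changed 2-fold, 4 of 97, and 6 unchanged genes were called, among 17179 genes. Simulated counts were drawn around a common mean per gene, apart from the set changes. No gene was set to be high in a single library or nearly absent from some, so the check does not cover such members.

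The members and gene lists were chosen with earlier results of these data known. Named genes were all constant genes and Jchain, the 5 heavy, 5 kappa and 3 lambda V segments with most counts, the 5 smallest edgeR p in each direction, the largest segment of each library, and 10 listed genes; some genes the rule names are not reported here. Intervals are exact binomial (Clopper-Pearson). Sequences are GENCODE M21, GRCm38; no coordinates are given because the builds differ.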

Additional observations from a re-analysis of the deposited data

How the results depend on the processing

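The edgeR fit called 2 genes of the whole table. DESeq2 called 178 of 21354 genes, 62 higher and 116 lower. The limma-voom fit called 1 and the fit with the replicate block 0. Leaving out each library gave 0 to 4 (0 without control library 3, 4 without control library 2, 1 without PS-MP library 1 or 3). Of the immunoglobulin genes 0 were called by edgeR and 4 by DESeq2, and of the other listed genes 0 and 2 (Marco and S100a9, named after their values were seen). Deviations of same-numbered libraries had correlations of 0.17, 0.19 and -0.15, and those of different-numbered libraries ranged from -0.29 to 0.12. The numbers were not taken as pairs in the main fit, and the fit with them as a block called 0 members. The log2 ratio of the immunoglobulin total was -0.15, and -1.18 over V segments alone, which leaves out Igkc and Jchain. The difference in lambda share was -62.1 points by constant genes and 9.44 points by V segments.

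Over 39 named genes, 482 of 531 alternative fold changes kept their direction and side of the threshold, 2 passed it (Ighv1-53 and Igkv8-21 under DESeq2), and 47, in 22 genes, changed sign. None of those 22 genes was called. Log2 fold changes of opposite sign were, under limma-voom, -0.52 for Jchain and 0.0047 for Igkv14-126. With the replicate block they were -0.56 for Jchain, 0.47 for Igkv5-39 and -0.010 for Iglv1. With library size only they were 0.17 for Ighd, 0.070 for Ighg1, 0.23 for Iglv3, 0.036 for Cd79a and 0.053 for Pou2af1, and with the upper quartile 0.0084 for Iglv3. Leaving out each library gave ranges that cross 0, as follows: Jchain -1.73 to 0.49, Ighd -0.66 to 0.43, Ighg3 -2.001 to 0.47, Ighg1 -1.001 to 0.56, Iglc2 -1.36 to 0.13, Ighv14-4 -0.91 to 2.04, Ighv3-6 -1.37 to 0.25, Igkv5-39 -2.45 to 1.63, Igkv3-2 -3.40 to 0.41, Igkv6-20 -0.97 to 1.95, Iglv1 -1.36 to 1.55, Iglv3 -0.61 to 1.013, Igkv6-29 -0.55 to 1.80, Igkv14-126 -2.52 to 1.999, Cd79a -0.61 to 0.15, Cd79b -0.40 to 0.41, Ms4a1 -0.83 to 1.15, Mzb1 -1.64 to 1.42, Sdc1 -0.037 to 0.23, Xbp1 -0.042 to 0.17, Pou2af1 -1.18 to 0.29, Pigr -0.054 to 0.089. The cause was not tested. Library size alone moved the median of all genes to 0.23, and 78 of 101 tested members were then below 0. Few segments had enough counts: a filter of 1 CPM in 3 libraries left 18 members. Of these 18, 12 were below 0, with a median log2 fold change of -0.58, where 48.0% of all genes were below 0.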

Other observations

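Joining segments carried almost no counts and barely varied. Of 14 listed, 12 had a count, none had more than 3 in any library, and 7 of those 12 had the same value in all 6 libraries. Igkj2, the only member among them, had 2 counts in each library.

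By place in the locus, the V segments on the side of the J segments held 29.4%, 30.2% and 43.3% of heavy V counts in the controls and 35.5%, 57.8% and 45.5% in the PS-MP libraries. For kappa the shares were 56.0%, 73.4% and 59.1% against 70.2%, 72.2% and 53.5%. Both overlapped between diets.

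Heavy constant counts per heavy V count were 0.540, 0.587 and 1.08 in the controls and 0.902, 1.87 and 2.43 in the PS-MP libraries, and Jchain counts per heavy V count reached 7.22 in PS-MP library 2 against 0.540 to 0.964 in the others.

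V segments annotated as pseudogenes made up 69 heavy and 60 kappa names listed, of which 1 and 3 were members.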
